A study of Drosophila melanogaster with 6 samples.

Results

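The genes described here regulate the photoreceptor cells of the fly eye or protect them from degeneration. They are rdgA, rdgB, rdgC, ninaA, ninaB, ninaC, inaC, inaD, Calx and santa-maria. Every probe set that the platform annotation assigned to exactly 1 of these symbols was taken, which gave 13 of 18769 non-control probe sets and covered 8 of the 10 genes, out of 11982 genes named in this way on the array. The gene rdgA had 4 probe sets, rdgB and rdgC had 2 each, and the other 5 genes had 1 each. No probe set carried ninaA, which encodes a cyclophilin that helps rhodopsin leave the endoplasmic reticulum, or ninaC, which encodes a photoreceptor myosin with a kinase domain, as its only symbol, and neither gene was analysed here.

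RNA came from heads of Drosophila melanogaster males that had lived for 6 days after eclosion either alone, with 1 fly per vial (single-housed), or with 10 males per vial (group-housed). By the series title, isolation gives more aggressive males. There were 3 Affymetrix arrays per housing condition, each from 20 pooled heads and described by the labels as biological replicates. The labels name no genotype, strain or mutation for either group. Whole heads hold brain, fat body and muscle beside the retina, so in such a mixture fewer photoreceptor cells and less RNA per photoreceptor cell cannot be told apart.

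Fly photoreceptors turn light into an electrical signal through a phosphoinositide cascade. Rhodopsin, which needs a chromophore made from dietary carotenoids, activates a G protein and phospholipase C, and the TRP and TRPL channels then let calcium and sodium into the cell. The products of the members supply the chromophore, recycle the lipids, hold the cascade together, switch rhodopsin off and remove calcium. Several were found through mutants whose retina degenerates (rdg) or whose electrical response to light is altered (ina, nina).

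All levels below are log2(intensity + 16) after quantile normalization, called the log2 signal. Differences are single-housed minus group-housed, and each SE is the standard error from a limma fit to all 13138 probe sets that passed a filter on dim signals. All 13 member probe sets passed that filter. The deposited array medians ran from 24.2 to 31.6, and normalized arrays correlated at 0.977 to 0.989 over all probe sets (genes are not independent replicates). Probe sets bind with different strength, so signals are compared between arrays and not between probe sets.

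No photoreceptor regulator passed limma's adjusted p of 0.05 (0 of 13 probe sets, against 0.0152% of all probe sets tested). Their adjusted p-values ran from 0.531 to 0.997. At unadjusted p 0.05 there was 1 of 13, an rdgC probe set, against 8.24% of all probe sets. Differences ran from -0.24 for that rdgC probe set to 0.24 for ninaB, inside the range from -0.35 to 0.44 that held the middle 95% of all probe sets. Of the 13 differences, 10 were below 0 and 3 above, but with the deposited scaling 4 were below and 9 above. After normalization 54.6% of all probe sets were below 0. The median was -0.09 over the members and -0.02 over all probe sets tested. With the deposited scaling, without normalization, these medians were 0.02 and 0.10, so the sign of the members' median depended on the scaling. The members' median was the lower one in both settings, but this gap was not tested. The gene rdgA enters it with 4 of the 13 probe sets. The groups did not overlap for 2 of the 13 probe sets, 1 of rdgC and the 1 of ninaB, against 14.2% of all probe sets.

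**Figure D1:**
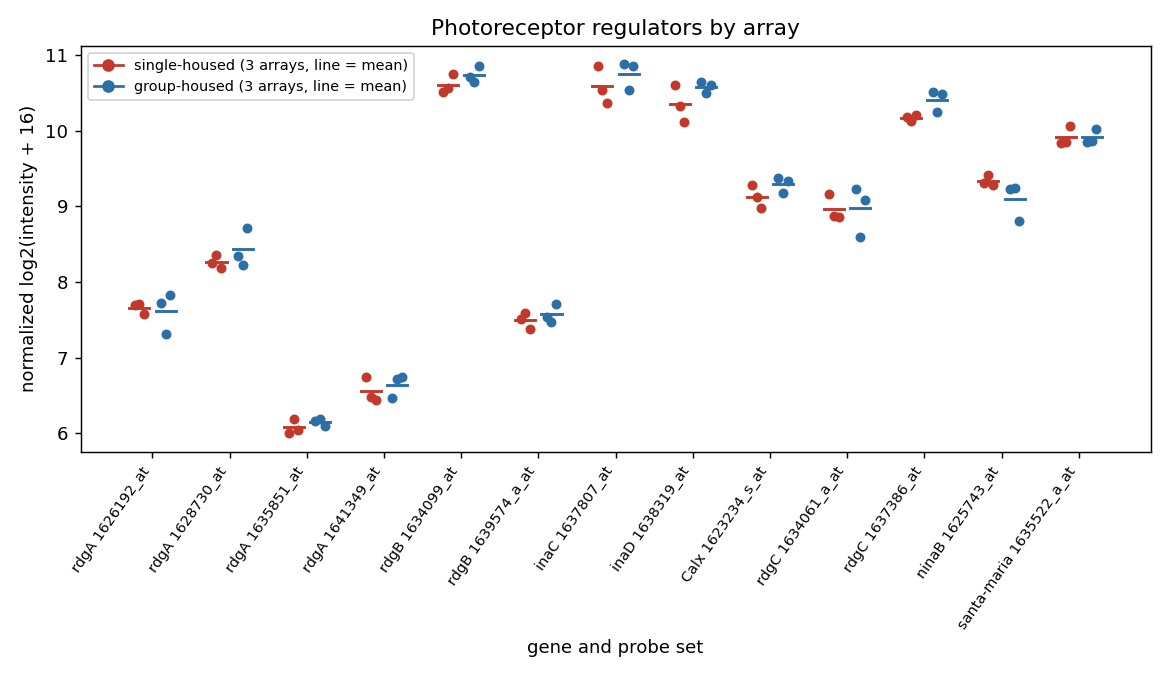
Log2 signal of each member probe set (horizontal axis) on each array (vertical axis, normalized log2(intensity + 16)); points are arrays, 3 single-housed on the left and 3 group-housed on the right of each pair, and short lines are group means. The groups separate only for rdgC probe set 1637386_at and for ninaB, and overlap for the other 11 probe sets.

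The chromophore supply had the only member with a positive difference above 0.2. In the other direction rdgC 1637386_at, at -0.24, and inaD, at -0.23, were about as large. The gene ninaB encodes the carotenoid oxygenase that cleaves and isomerises carotenoids to make the retinal chromophore. Its log2 signal was 9.31, 9.41 and 9.28 in single-housed heads, against 9.23, 9.24 and 8.81 in group-housed heads. Every single-housed array thus lay above every group-housed array, by a narrow margin on the closest pair, and group-housed replicate 3 was the lowest of the 6. The mean was 9.33 ± 0.070 in single-housed heads, against 9.09 ± 0.25 in group-housed heads (SD, n = 3), a difference of 0.24 (SE 0.12), or 1.18-fold (95% interval 0.976 to 1.43). Limma gave an adjusted p of 0.648, and the exact permutation test (2-sided) gave p = 0.1, the lower limit for 3 against 3 arrays. As deposited, before any common scaling, the ninaB intensities were 714.5, 740.0 and 562.9 in single-housed heads, against 581.9, 504.9 and 434.3 in group-housed heads, and the groups overlapped. Without group-housed replicate 3 the difference was 0.10.

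The other chromophore gene, santa-maria, encodes a scavenger receptor that takes up carotenoids for ninaB to cleave. Its log2 signal was 9.84, 9.85 and 10.06 in single-housed heads, against 9.85, 9.86 and 10.02 in group-housed heads. The groups covered nearly the same range, with replicate 3 highest in each. The difference was 0.0035 (SE 0.088), or 1.00-fold (95% interval 0.873 to 1.15), so the interval leaves room for modest differences either way (limma adjusted p 0.997). With the deposited scaling santa-maria was at 0.20 and ninaB at 0.40, with the median of all probe sets at 0.10 in that setting.

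Phosphatases and kinases turn the cascade off. The gene rdgC encodes the calcium-regulated phosphatase that removes phosphates from rhodopsin, and its probe sets gave different values. With probe set 1637386_at the log2 signal was 10.18, 10.12 and 10.21 in single-housed heads, against 10.51, 10.24 and 10.48 in group-housed heads. All 3 single-housed arrays lay below all 3 group-housed arrays, with group-housed replicate 2 close to the single-housed ones. The difference was -0.24 (SE 0.085, limma unadjusted p 0.0202, adjusted p 0.531), which corresponds to a 1.18-fold higher signal with group housing (95% interval 1.03 to 1.35). The exact permutation test (2-sided) gave p = 0.1, that lower limit. As deposited the intensities were 1313, 1241 and 1074 in single-housed heads, against 1427, 1037 and 1345 in group-housed heads, and the groups overlapped. The difference with the deposited scaling was -0.06.

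The second rdgC probe set, 1634061_a_at, showed no such separation. Its log2 signal was 9.16, 8.87 and 8.85 in single-housed heads, against 9.23, 8.60 and 9.08 in group-housed heads. Group-housed arrays held both the highest and the lowest value, and the groups overlapped throughout. The difference was -0.0081 (SE 0.16, limma adjusted p 0.995), with a 95% interval from -0.38 to 0.36 that includes the value of the other probe set. Its sign changed with the deposited scaling (0.14) and with median centring (0.06). On Affymetrix arrays the suffix "_a_at" marks a probe set that matches several transcripts of 1 gene, and which transcripts each rdgC probe set reads was not determined here.

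**Figure D2:**
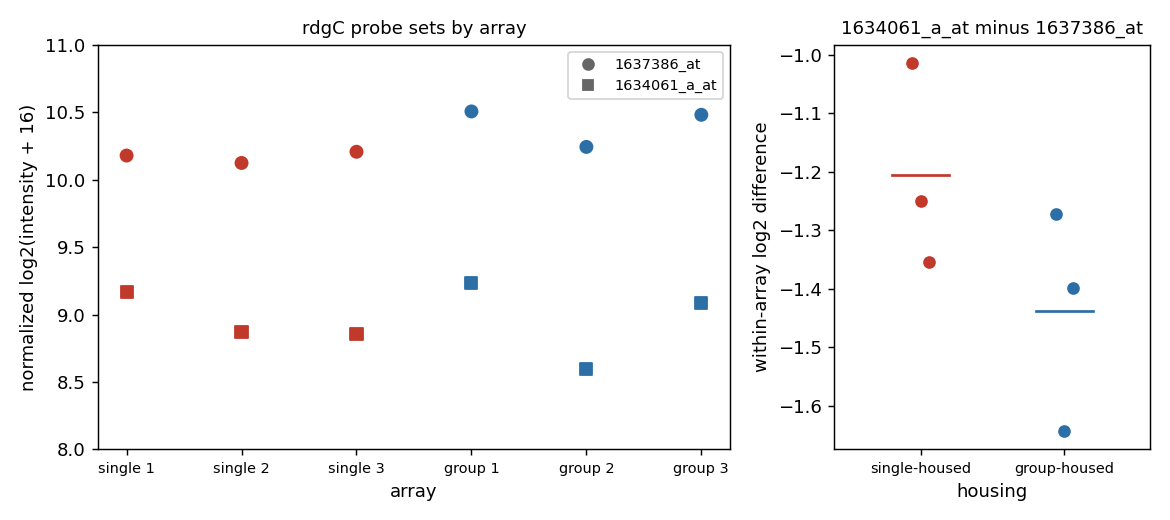
Left, log2 signal (vertical axis) of rdgC probe sets 1637386_at (circles) and 1634061_a_at (squares) on each array (horizontal axis), with single-housed arrays in red and group-housed arrays in blue. Right, signal of 1634061_a_at minus 1637386_at within each array, with lines at the means of -1.21 for single-housed and -1.44 for group-housed arrays. The groups overlap in the right panel.

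The rdgC probe sets, whose disagreement was known when these genes were chosen, were compared through the difference between them within each array. The signal of 1634061_a_at minus that of 1637386_at was -1.21 ± 0.17 in single-housed heads, against -1.44 ± 0.19 in group-housed heads (SD, n = 3). The housing conditions therefore differed by 0.23 in this measure (exact permutation test, 2-sided, p = 0.2, and 0.8 after Benjamini-Hochberg adjustment over the 8 pairs of probe sets within a gene). The single-housed values ran from -1.35 to -1.01 and the group-housed values from -1.64 to -1.27, so they overlapped. With 3 against 3 arrays this exact permutation test cannot go below p = 0.1, so it could not have passed 0.05 for any pair and says nothing on whether the rdgC probe sets respond alike. Leaving out group-housed replicate 2 gave a shift of 0.13, and leaving out single-housed replicate 1 gave 0.14.

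The genes whose signal followed each rdgC probe set most closely over the 6 arrays were looked up among the 10733 other fitted probe sets with 1 gene name. For 1637386_at they were cdi, CG10383 and CG11617, with Pearson's r of 0.988, 0.983 and 0.979 (Spearman's rho 0.943, 0.886 and 0.943). For 1634061_a_at they were Taz, CG42699 and tmod, with r of 0.992, 0.987 and 0.985 (rho 0.943 for each). These are the highest of 10733 comparisons each, over only 6 arrays that share their normalization. An r above 0.95 was reached by 46 and 16 of them, and they are given as a description with no test.

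The genes inaC and inaD encode proteins that work side by side. The first is the eye-specific protein kinase C that terminates the light response, and the second is the PDZ-domain scaffold that holds this kinase, phospholipase C and the TRP channel in a complex. The log2 signal of inaD was 10.60, 10.32 and 10.11 in single-housed heads, against 10.64, 10.50 and 10.60 in group-housed heads. The single-housed arrays spread widely and the first of them lay among the group-housed arrays, so the groups overlapped. The difference of inaD was -0.23 (SE 0.12, limma adjusted p 0.648), or a 1.17-fold higher signal with group housing (95% interval 0.977 to 1.41). Leaving out single-housed replicate 1 gave -0.36, and leaving out single-housed replicate 3 gave -0.11.

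For inaC the log2 signal was 10.85, 10.53 and 10.36 in single-housed heads, against 10.87, 10.54 and 10.85 in group-housed heads. Both groups held high and low arrays, and the difference was -0.17 (SE 0.13, limma adjusted p 0.776). With the deposited scaling it was 0.0074, and without single-housed replicates 1 and 3 it was -0.31 and -0.06.

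Calcium is removed from the photoreceptor by the sodium-calcium exchanger that Calx encodes. Its log2 signal was 9.28, 9.13 and 8.98 in single-housed heads, against 9.37, 9.18 and 9.34 in group-housed heads. Single-housed replicate 1 lay above group-housed replicate 2, so the groups overlapped. The difference of Calx was -0.17 (SE 0.098, limma adjusted p 0.691), a 1.13-fold higher signal with group housing (95% interval 0.964 to 1.31), and it was -0.0081 with the deposited scaling. Dropping single-housed replicate 3 gave -0.09. The 1 Calx probe set has the suffix "_s_at", which Affymetrix uses for probes shared between transcripts that can belong to different genes, although the annotation lists Calx alone.

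The arrays were ordered much alike by inaC, inaD and Calx. In each of the 3 genes group-housed replicate 1 was the highest array and single-housed replicate 3 the lowest, with single-housed replicate 2 next to it. The summed signal of photoreceptor markers is given with the marker lists below.

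Lipid recycling is the task of rdgA and rdgB. The eye diacylglycerol kinase encoded by rdgA turns diacylglycerol into phosphatidic acid, and the transfer protein encoded by rdgB carries phosphatidylinositol back to the light-sensitive membrane. The 4 rdgA probe sets were at 0.04 (1626192_at, SE 0.14), -0.17 (1628730_at, SE 0.13), -0.07 (1635851_at, SE 0.11) and -0.09 (1641349_at, SE 0.13), with limma adjusted p-values from 0.771 to 0.964. The groups overlapped for each of them. With 1628730_at the log2 signal was 8.25, 8.35 and 8.19 in single-housed heads, against 8.34, 8.23 and 8.71 in group-housed heads. Group-housed replicate 3 alone stood well above the rest, and without it the difference was -0.02. With 1626192_at the lowest array was group-housed replicate 2, at 7.31 against 7.57 to 7.83 on the other 5, and the difference was -0.12 without it, which reversed its sign.

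Within-array differences between rdgA probe sets overlapped between the housing conditions in each of the 6 pairs. They shifted by -0.10 to 0.20 (exact permutation tests, 2-sided, p from 0.2 to 0.9, with the same lower limit of 0.1). The pair with the shift of 0.20 was 1626192_at and 1628730_at.

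Both rdgB probe sets lay slightly below 0 and both groups overlapped in each. With 1634099_at the log2 signal was 10.51, 10.56 and 10.74 in single-housed heads, against 10.71, 10.65 and 10.85 in group-housed heads. Replicate 3 was the highest array of each group. The difference was -0.13 (SE 0.086, limma adjusted p 0.717), and 0.05 with the deposited scaling. Without group-housed replicate 3 it was -0.07, and without single-housed replicate 3 it was -0.20. With 1639574_a_at the difference was -0.08 (SE 0.10, limma adjusted p 0.864), 0.05 with the deposited scaling, and -0.01 without group-housed replicate 3. Their shift relative to each other was -0.05 (exact permutation test, 2-sided, p = 0.9).

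**Figure D3:**
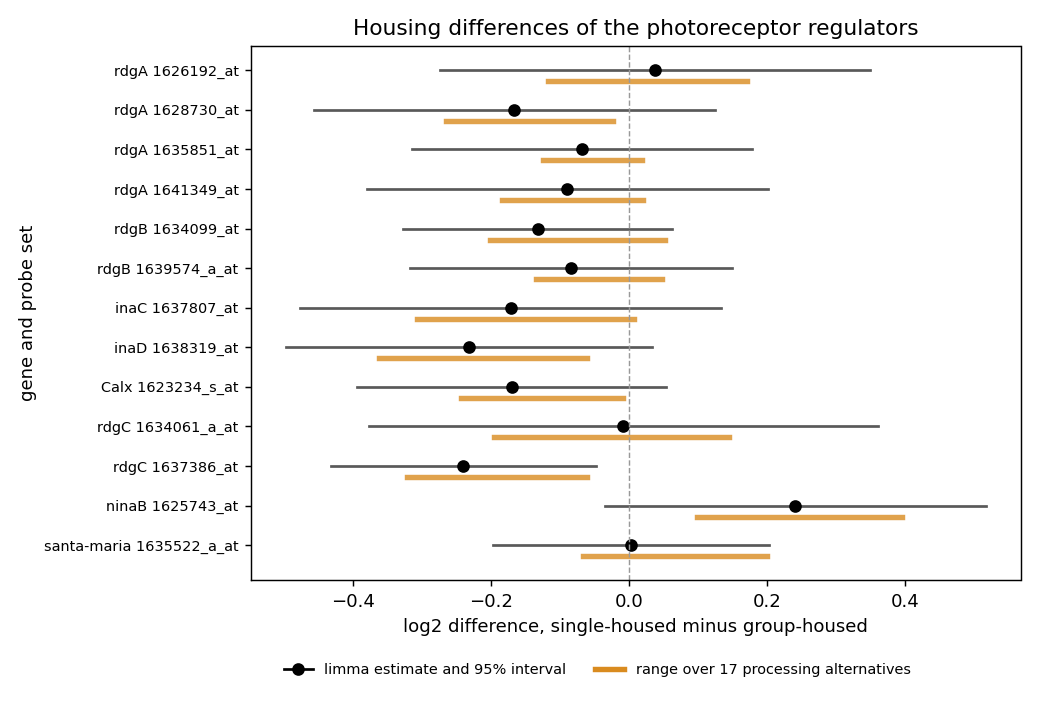
Log2 difference, single-housed minus group-housed (horizontal axis), for each member probe set (vertical axis); black points and lines are limma estimates with 95% intervals, and orange bars span the values under 17 processing alternatives. The interval of rdgC 1637386_at lies below 0 and those of the other 12 include 0, all before adjustment over the 13138 probe sets.

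Other visual genes were set beside the members through 3 lists, each gene by its brightest probe set. Of 15 core phototransduction genes 7 had a probe set of their own, and 7 of 7 lay below 0 after normalization but 1 of 7 with the deposited scaling (medians -0.12 and 0.06). Among the 7, trp was at only -0.01 and Arr2 at -0.03. Arr2 sat at the top of the normalized values on 5 of 6 arrays, which fixes its level there. None of the 7 genes passed (0 at limma adjusted p 0.05, 0 at unadjusted p 0.05). The nearest to the threshold were the G protein subunit genes Galphaq at -0.26 (SE 0.11) and Gbeta76C at -0.21 (SE 0.13), the channel gene trpl at -0.19 (SE 0.095) and the rhodopsin kinase family gene Gprk1 at -0.12 (SE 0.087), with limma adjusted p-values from 0.611 to 0.759. The other Galphaq probe sets, both dimmer, were at -0.13 and -0.18. No rhodopsin gene and not norpA, which encodes the phospholipase C of the cascade, had such a probe set, and they were not analysed here.

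Genes of photoreceptor structure and fate gave 4 of 6 below 0, or 2 of 6 with the deposited scaling (medians -0.14 and 0.04, 0 at limma adjusted p 0.05, 0 at unadjusted p 0.05). The transcription factor gene gl, needed for photoreceptor development, was at -0.15 (SE 0.089), the homeobox gene oc at -0.17 (SE 0.10), and the rhabdomere gene chp at -0.16 (SE 0.14). For gl the groups did not overlap, with 7.96, 8.13 and 8.08 in single-housed heads, against 8.19, 8.13 and 8.30 in group-housed heads; the closest values differ only in the third decimal.

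Of 11 further genes of the visual cycle and phosphoinositide metabolism, 6 lay above 0 and 5 below, or 10 above and 1 below with the deposited scaling (medians 0.01 and 0.14, 0 at limma adjusted p 0.05, 0 at unadjusted p 0.05). The carotenoid uptake receptor gene ninaD, which acts with ninaB in making the chromophore, was at 0.40 (SE 0.23, limma adjusted p 0.694). The group-housed spread of ninaD, an SD of 0.52, was larger than that difference. The diacylglycerol lipase gene inaE was at -0.18 (SE 0.085, limma adjusted p 0.637), and the CDP-diacylglycerol synthase gene listed as CdsA was at -0.14 (SE 0.084). The other inaE probe sets, all dimmer, were at -0.20, -0.05, 0.06 and -0.10.

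**Figure D4:**
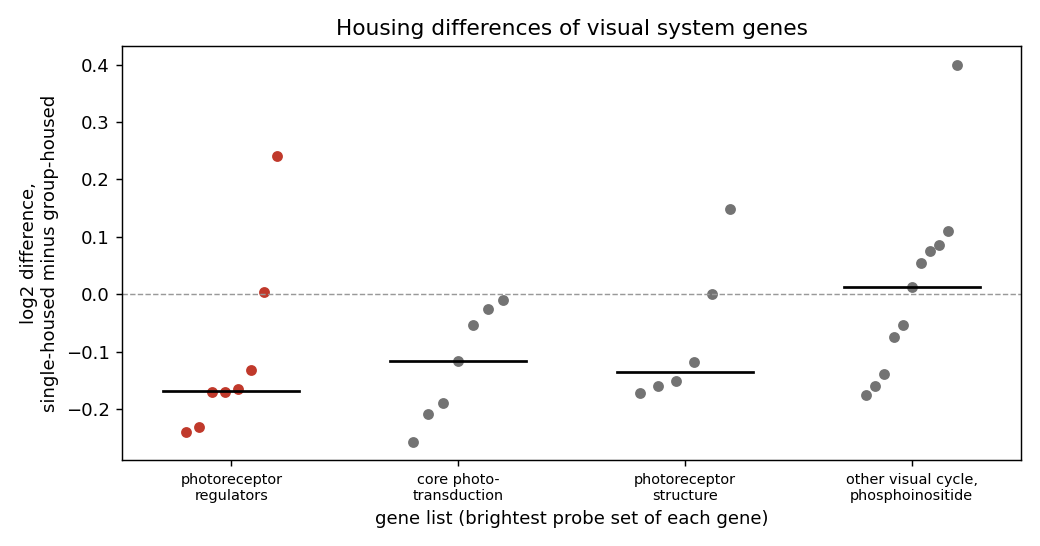
Log2 difference, single-housed minus group-housed (vertical axis), of the brightest probe set of each gene in 4 lists (horizontal axis); points are genes and black lines are list medians. The photoreceptor regulators, in red, have a median of -0.17 over 8 genes (-0.00036 with the deposited scaling), with ninaB at 0.24. Over all 13 member probe sets the median is -0.09 (0.02 with the deposited scaling). For rdgA the brightest probe set, at -0.17, is also the lowest, and the others are at 0.04, -0.07 and -0.09. For rdgC the brightest is at -0.24 and the other at -0.0081, and for rdgB they are at -0.13 and -0.08. No gene shown passed adjusted p 0.05.

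Markers of the cells in the head were measured on the same arrays. Photoreceptor markers were present, and 6 of 8 had a probe set of their own (median -0.09 with 6 of 6 below 0, or 0.06 with 1 of 6 below 0 with the deposited scaling). All 6 markers are also counted in the lists above. There trp, Arr1 and Arr2 are core phototransduction genes, and chp, eys and gl are structure and fate genes. The marker count is thus not independent of those lists. Their summed normalized signal ran from 22630 to 24808 in single-housed heads, against 23636 to 24627 in group-housed heads. Arr2, an arrestin gene, made up 40.6% to 44.0% of this sum and sat at the top of the quantile-normalized values on 5 of 6 arrays, which fixes its level there. Without Arr2, a sum added after the data were seen, the other 5 markers came to 12812 to 14730 in single-housed heads, against 13558 to 14549 in group-housed heads. In another setting each array was centred on the mean log2 signal of all 6 photoreceptor markers, Arr2 included. There ninaB was at 0.33, rdgC 1637386_at at -0.15, inaD at -0.15, inaC at -0.08 and Calx at -0.08. With this centring 0 member probe sets passed adjusted p 0.05 (limma). At unadjusted p 0.05 there was 1, which was ninaB and no longer rdgC 1637386_at, against 7.19% of all probe sets in that setting. Which head cells gave the ninaB signal was not determined, so its centred value cannot be read as a difference per photoreceptor. Fat body markers, on lists chosen with earlier results of these data known, had 4 of 4 above 0 and a median of 1.08. Of these 4 markers, 0 passed limma adjusted p 0.05 and 4 passed unadjusted p 0.05, against 0.0152% and 8.24% of all probe sets. Their summed signal ran from 17554 to 19139 in single-housed heads, against 6651 to 14247 in group-housed heads. Their median was 1.25 with the deposited scaling. Group-housed replicate 3, the lowest array for ninaB, was also the lowest of the 6 for the fat body genes fit (8.97), Lsp2 (9.25) and Lsd-1 (9.52), but not for Obp99b (12.25, with 11.79 on group-housed replicate 1). Glial markers had 5 of 5 above 0 (median 0.09, or 0.29 with the deposited scaling and 0.20 with median centring) and sums from 5977 to 6492 in single-housed heads, against 5378 to 6128 in group-housed heads. The medians of neuron, pigment cell and muscle markers were -0.11 over 4 genes, 0.05 over 3 and -0.02 over 2, and with the deposited scaling they were 0.06, 0.20 and 0.11. The genes listed for pigment cells disagreed, with Pdh at 0.05, st at 0.08 and ct at -0.22. Whether ct reads pigment cells in these heads was not determined. The part of fat body or glial RNA in the ninaB difference was not tested.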

How the data were processed

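Head RNA of 3 single-housed and 3 group-housed samples was biotin-labelled for Affymetrix arrays, per the labels' protocols. The authors deposited 1 intensity per probe set and array on a linear scale. How probes were summarised, corrected for background and scaled is not stated in the labels. Of 18952 probe sets, 183 controls were left out. The platform annotation gave 1 gene for 13647 of the others, several for 402 and none for 4720. The number of arrays limits the precision.

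Values were taken as log2(intensity + 16) and brought to 1 distribution by quantile normalization. After the dimmest 30% by mean were left out, 13138 probe sets were fitted in R 4.3.3 by limma 3.58.1 (eBayes with an intensity trend after lmFit, 2-sided, Benjamini-Hochberg over all 13138). The fit was tested on simulated data. Fold values understate the change of dim probe sets. Probe sets of 1 gene were compared within arrays by exact permutation tests. Nothing in the labels shows separate cultures for the replicates beyond the word biological, so p-values measure the spread between these samples.

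The members and gene lists were chosen with earlier results of these data known. Every member probe set is named, and for each comparison list up to 4 genes with the smallest p. For each rdgC probe set the 3 genes with the highest Pearson's r are named. Same-numbered arrays were not treated as pairs.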

Additional observations from a re-analysis of the deposited data

How the results depend on the processing

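Under 17 alternatives no member probe set passed limma's adjusted p of 0.05 (0 of 221 values, lowest 0.139, for rdgC 1637386_at without group-housed replicate 2). At unadjusted p 0.05, rdgC 1637386_at was the 1 member in the settings used (8.24% of all probe sets). The count was 0 with median centring (5.63%) and without the intensity trend (7.5%). It was 3 with the replicate block (rdgC 1637386_at, inaD and ninaB, with 11.2%). Dropping 1 array gave 0 to 4, with 4 without single-housed replicate 1 (rdgC 1637386_at, inaC, inaD and Calx, with 6.52% of all probe sets), 2 without group-housed replicate 2 (rdgC 1637386_at and ninaB, with 10.3%), and 0 when single-housed replicate 2 or group-housed replicate 3 was dropped. With the deposited scaling, with photoreceptor marker centring and without group-housed replicate 1 the 1 member was ninaB. Its limma unadjusted p was 0.0269, 0.0456 and 0.048 (8.12%, 7.19% and 7.55% of all probe sets). The block was not taken as a pairing, since deviations of same-numbered arrays correlated at 0.032, 0.11 and 0.33 and not every array correlated best with its own number. Over all probe sets, calls at adjusted p 0.05 were 32 with the replicate block and 2 without it. The deposited scaling gave 78, median centring 11, photoreceptor marker centring 15, array weights 5 and the fit without the intensity trend 0. They were 1 with a pseudocount of 64, without a filter and with the 50% filter, and 0 to 47 with 1 array left out.

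The direction was the same in 202 of 221 values. The deposited scaling reversed rdgA 1635851_at (0.019) and 1641349_at (0.020), rdgB 1634099_at (0.052) and 1639574_a_at (0.048), rdgC 1634061_a_at (0.14) and inaC (0.0074). Median centring reversed rdgC 1634061_a_at (0.057), photoreceptor marker centring reversed rdgA 1635851_at (0.019), rdgB 1639574_a_at (0.0022) and rdgC 1634061_a_at (0.079), and array weights reversed santa-maria (-0.00082). With 1 array left out, rdgC 1634061_a_at ran from -0.20 to 0.12, santa-maria from -0.066 to 0.060 and rdgA 1626192_at from -0.12 to 0.14. The median over the members ran from -0.18 to -0.037 with 1 array left out. The shift between the rdgC probe sets kept its direction in 9 of 9 alternatives (0.13 to 0.32). Shifts between rdgA or rdgB probe sets reversed in 12 values. With the deposited scaling these were -0.00093 (rdgA 1635851_at minus 1641349_at) and 0.0043 (rdgB 1634099_at minus 1639574_a_at). With 1 array left out, rdgA 1626192_at minus 1635851_at ran from -0.068 to 0.24, 1626192_at minus 1641349_at from -0.068 to 0.27, 1628730_at minus 1635851_at from -0.22 to 0.070, 1628730_at minus 1641349_at from -0.22 to 0.026 and 1635851_at minus 1641349_at from -0.073 to 0.15, and rdgB 1634099_at minus 1639574_a_at ran from -0.17 to 0.023. The cause of these changes was not tested.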
